A study of Mus musculus with 16 samples.

Results

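The complement components C1qa, C1qb, C1qc, C3 and C4b and the complement regulators Cd55, Cd59a and Serping1 were followed in the dentate gyrus, the hippocampal region where neurons are born in adult mice. The 8 genes were taken by gene name from tables that list 24421 gene names, and all 8 were among the 17317 genes tested. Levels are given in TPM, a share of all transcripts that takes gene length into account. The study asked how loss of the cell cycle inhibitor p16Ink4a and voluntary running change gene expression in the aged dentate gyrus.

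All mice were C57BL/6 males aged 1 year. The p16 WT CTL group was p16Ink4a +/+ and sedentary, and the p16 KO CTL group was p16Ink4a -/- and sedentary. The p16 WT RUN and p16 KO RUN groups had the same genotypes and 12 days of free access to a running wheel. The knockout line was made in FVB mice, was bred into C57BL/6 and keeps a working p19Arf, the other product of the Cdkn2a locus. Each group had 4 libraries, 16 in all, numbered 1 to 16, and each library held the pooled dentate gyri of a pair of mice. P-values therefore measure the spread between such pools and not between single animals.

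Complement is a cascade of secreted proteins that tags cells and debris for removal. C1q starts the classical branch, and the cleavage of C4 and C2 then builds an enzyme that cleaves C3, whose fragments are read by receptors on phagocytes. In brain, C1q is made mainly by microglia, C4b is expressed in astrocytes and other glia, and tagging by C1q and C3 takes part in the removal of synapses. Cells are protected by regulators: C1 inhibitor (Serping1) blocks C1r and C1s, Cd55 speeds the decay of the C3 convertases, and Cd59a stops assembly of the membrane attack complex.

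Several libraries stood apart in genes outside the complement pathway. In p16 WT CTL replicate 2, p16 KO CTL replicate 6 and p16 KO CTL replicate 7, the summed level of 9 nuclear RNAs was 557 to 1073 TPM, against 2040 to 2817 TPM in the other 13 libraries. The same 3 libraries were also higher in 18 microglia genes (833 to 997 TPM against 639 to 759 TPM) and in 10 astrocyte genes (4125 to 4792 TPM against 3259 to 3984 TPM), and lower in 10 endothelial genes (120 to 160 TPM against 193 to 267 TPM). The main results that rest on them are given with and without them. Coverage relative to the mean library was 0.900 to 1.95 in p16 WT CTL, 0.914 to 1.68 in p16 KO CTL, 0.621 to 0.877 in p16 WT RUN and 0.796 to 0.893 in p16 KO RUN. The 9 dentate granule neuron genes summed to 612 to 1590 TPM, with none at 0 in all libraries. Correlations between libraries of the same group were 0.972 to 0.985. Cdkn2a, the locus of p16Ink4a, was at 0 to 0.586 TPM over all libraries, with overlapping groups, so its level, which also counts p19Arf, did not tell the genotypes apart.

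The C1q genes were the highest of the 8 and C3 the lowest. Over the 16 libraries the means were 101 ± 13.6 TPM (SD) for C1qa, 84.8 ± 10.9 TPM for C1qc and 80.5 ± 12.3 TPM for C1qb. C4b followed at 36.4 ± 7.05 TPM. The regulators were lower, with Cd59a at 7.91 ± 2.74 TPM, Serping1 at 7.32 ± 1.16 TPM and Cd55 at 2.70 ± 0.481 TPM, and C3 was lowest at 0.394 ± 0.378 TPM. C1qc and C1qb, and likewise Cd59a and Serping1, did not differ beyond their spread in this order. The initiating C1q genes were thus at 67.3 TPM or more in every library, whereas C3, the central component, reached 1.20 TPM at most.

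**Figure D1:**
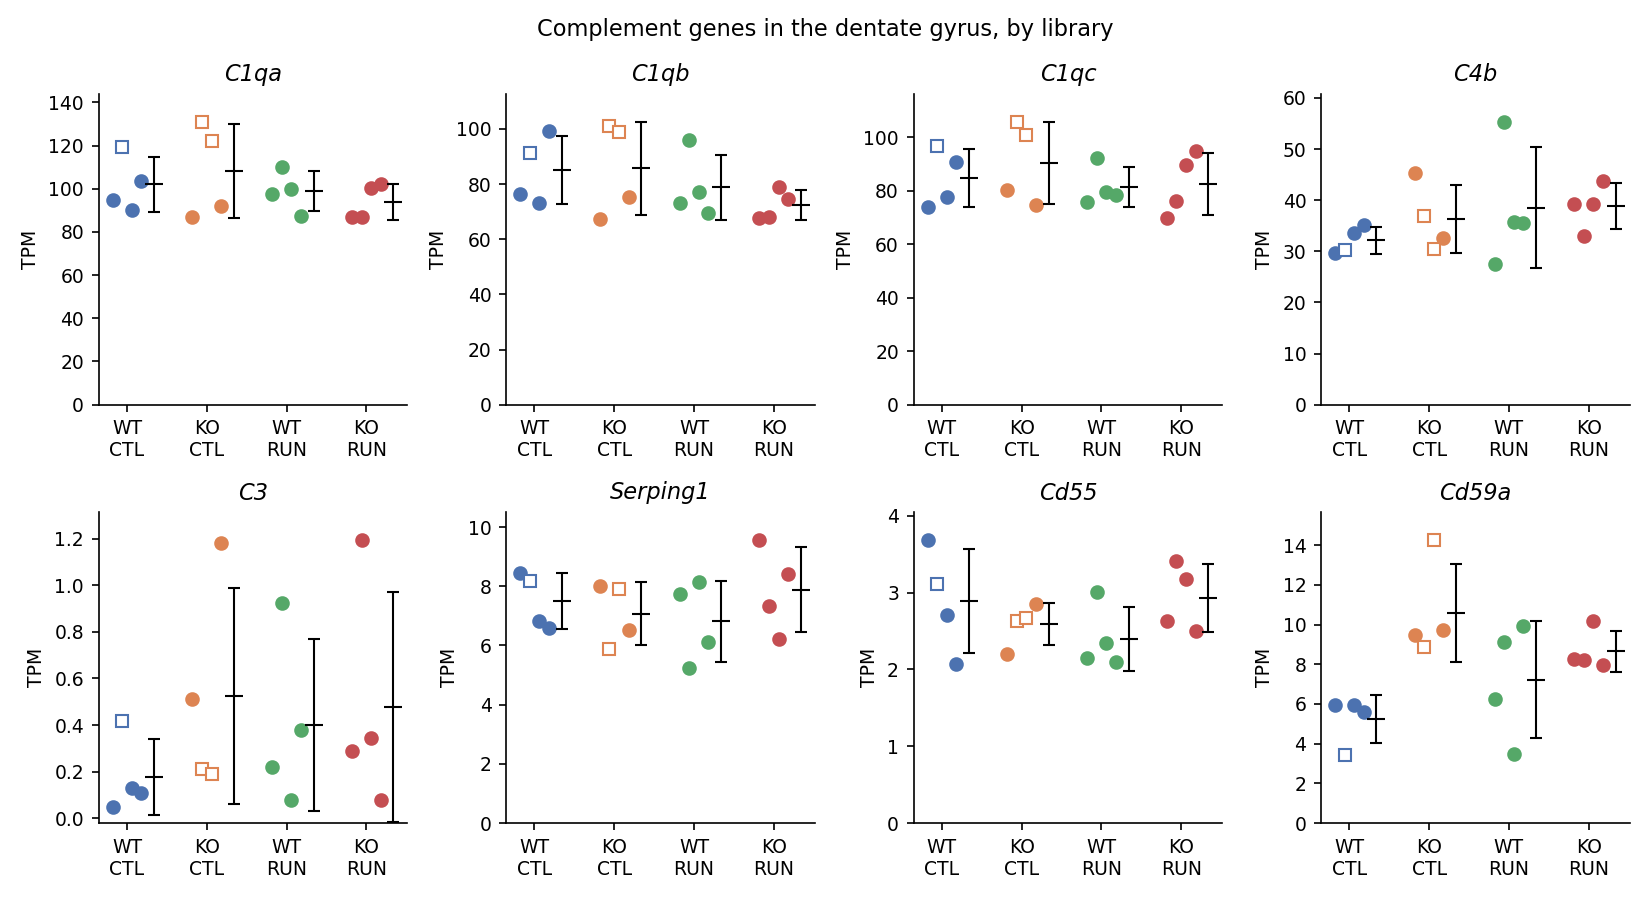
Level in TPM (vertical axis, linear) of each of the 8 complement genes in the 16 libraries, by group (horizontal axis). Points are libraries, open squares are the 3 libraries low in nuclear RNA, and black bars are the mean ± SD of 4 libraries; Cd59a is the gene whose p16 KO CTL libraries (8.87 to 14.2 TPM) all lie above the p16 WT CTL libraries (3.44 to 5.94 TPM).

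The 3 genes of C1q encode the A, B and C chains, which join in equal numbers in the protein. They lie side by side on the minus strand of mouse chromosome 4 within 18.7 kb of mm10: C1qb at chr4:136880145-136886177, C1qc at chr4:136889802-136892914 and C1qa at chr4:136895916-136898844, each with 3 exons in its longest annotated transcript. Cdkn2a is on the same chromosome, 47585526 bases away. Since the C1q genes moved together, the 250 bases before the RefSeq start of C1qb and C1qc (GRCm38.p6) are shown, 5′ to 3′ on the gene's strand. Capitals mark the core of the binding site of PU.1, the myeloid transcription factor, searched on both strands as GAGGAA or TTCCTC.
C1qb, chr4:136886201-136886450: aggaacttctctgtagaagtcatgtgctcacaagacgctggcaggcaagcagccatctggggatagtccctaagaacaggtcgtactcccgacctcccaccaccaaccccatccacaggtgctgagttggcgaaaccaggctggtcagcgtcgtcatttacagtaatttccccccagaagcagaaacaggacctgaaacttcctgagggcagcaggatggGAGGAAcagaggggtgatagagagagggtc
C1qc, chr4:136892915-136893164: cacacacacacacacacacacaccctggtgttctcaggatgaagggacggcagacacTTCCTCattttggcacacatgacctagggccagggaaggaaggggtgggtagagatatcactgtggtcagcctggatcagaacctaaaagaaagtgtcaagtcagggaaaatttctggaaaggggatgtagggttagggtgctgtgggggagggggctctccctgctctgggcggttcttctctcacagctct
The match lay 30 to 25 bases before the start in C1qb, and on the opposite strand 193 to 188 bases before the start in C1qc. Of 32851 mouse promoter windows of the same length, 23.3% hold such a match.

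C1qa was at 95.0, 119, 90.3 and 104 TPM in p16 WT CTL and at 87.0, 131.0, 122 and 92.2 TPM in p16 KO CTL. After running it was at 97.4, 110, 100.1 and 87.4 TPM in p16 WT RUN and at 87.0, 86.7, 100.1 and 102 TPM in p16 KO RUN. The 3 highest libraries were the 3 that were low in nuclear RNA, all of them sedentary, and the groups overlapped throughout. C1qb was at 76.6, 91.3, 73.0 and 99.4 TPM in p16 WT CTL, 67.3, 101, 99.1 and 75.4 TPM in p16 KO CTL, 73.0, 95.9, 77.1 and 69.4 TPM in p16 WT RUN and 67.8, 68.2, 79.1 and 74.6 TPM in p16 KO RUN. C1qc was at 74.0, 96.7, 77.7 and 90.6 TPM in p16 WT CTL, 80.2, 106, 101 and 74.8 TPM in p16 KO CTL, 75.7, 92.4, 79.6 and 78.4 TPM in p16 WT RUN and 69.9, 76.2, 89.6 and 94.8 TPM in p16 KO RUN. In the knockout controls both genes were, like C1qa, high in replicates 6 and 7 and low in replicates 5 and 8.

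The chains kept nearly fixed proportions. The ratio of C1qb to C1qa was 0.799 ± 0.0534 (SD, n = 16) and that of C1qc to C1qa 0.844 ± 0.0497, so that C1qa was the highest of the 3 in every library. Pearson correlations between the 3 genes over the 16 libraries, on the log2 scale, were 0.868 to 0.927, and 0.655 to 0.851 over the 13 libraries left without those low in nuclear RNA. These are descriptions over libraries that share depth and dissection, and carry no test.

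Of the marker lists, the microglia genes had the highest correlation with C1q over the libraries. The summed level of 18 microglia genes, none of them a C1q gene and none at 0, was 685 to 833 TPM in p16 WT CTL, 689 to 997 TPM in p16 KO CTL, 653 to 759 TPM in p16 WT RUN and 639 to 758 TPM in p16 KO RUN. Its correlation with the mean C1q level was 0.94 (Spearman's 0.87, n = 16), 0.97 after subtraction of group means, 0.82 over the 13 libraries and 0.89 without the 2 libraries farthest from the median. C1q also correlated with the astrocyte genes at 0.88 (0.51 over the 13 libraries), with the endothelial genes at -0.80 (-0.16) and with the nuclear RNAs at -0.79 (0.37). Its correlation was 0.52 with reactive astrocytes (0.77 after subtraction of group means, 0.46 over the 13 libraries). With mural cells it was -0.66 (-0.38 over the 13 libraries). The correlation was 0.51 with the interferon response (-0.33 over the 13 libraries), 0.40 with choroid plexus (-0.41) and 0.48 with pyramidal neurons (-0.08). It was 0.49 with oligodendrocytes (0.07) and 0.35 with interneurons (0.07). With the other 6 lists, for ependyma, meninges and fibroblasts, granule neurons, border macrophages, blood, and monocytes and neutrophils, it was -0.26 to 0.15. Over the 13 libraries these ran from -0.42 to 0.36. The ratio of the C1q sum to the microglia sum was 0.360 ± 0.0183 (n = 16), a coefficient of variation of 5.07%, whereas the C1q sum itself varied by 13.3%. In bulk tissue, fewer cells of a type and less RNA per cell cannot be told apart. Genes that mark macrophages of the brain borders, such as Mrc1 and Lyve1, summed to 1.86 to 5.85 TPM, and 7 genes of monocytes and neutrophils to 1.40 to 10.7 TPM.

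**Figure D2:**
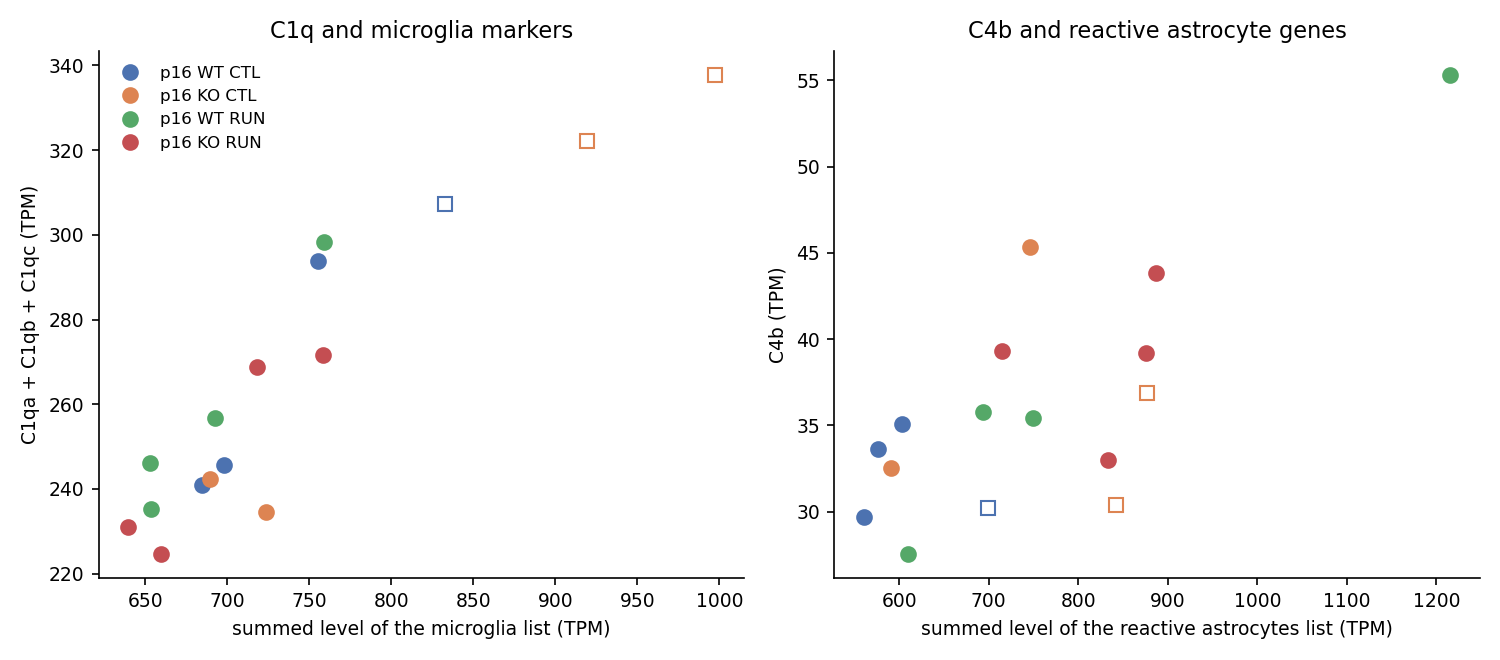
Left: summed level of C1qa, C1qb and C1qc (TPM) against the summed level of 18 microglia genes (TPM). Right: C4b (TPM) against the summed level of 11 genes of reactive astrocytes (TPM). Each point is a library, coloured by group, and open squares are the 3 libraries low in nuclear RNA, which hold the highest C1q sums (307 to 338 TPM) and microglia sums (833 to 997 TPM); p16 WT RUN replicate 10 holds the highest C4b (55.3 TPM) and reactive astrocyte sum (1216 TPM).

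Running in the knockout (Set A, p16 KO RUN against p16 KO CTL) gave the C1q differences farthest from 0 among the sets. The log2 difference was -0.25 for C1qa (95% interval -0.60 to 0.10, limma adjusted p = 0.391), -0.29 for C1qb (-0.63 to 0.06, limma adjusted p = 0.325) and -0.19 for C1qc (-0.53 to 0.15, limma adjusted p = 0.492). None of the 8 complement genes had an unadjusted p under 0.05 in Set A, where 18.5% of all tested genes did. Without the 3 libraries low in nuclear RNA (of which Set A holds p16 KO CTL replicates 6 and 7) the differences were 0.05, 0.00087 and 0.06, so the direction of C1q in Set A rested on those libraries. Without p16 KO CTL replicate 5, by contrast, C1qa fell by 0.37 and C1qb fell by 0.42, with unadjusted p of 0.0248 and 0.00850 (limma).

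Microglia genes were lower in the same comparison. In Set A, 8 of 18 were lower and 0 higher at an unadjusted p under 0.05, against 7.74% of all tested genes that were lower. Without the libraries low in nuclear RNA, 1 of 18 was lower and 0 higher, against 3.59% and 4.9% of all tested genes. Over both genotypes, running left 9 of 18 lower, against 8.02% of all tested genes, and 0 of 18 lower without those libraries, against 4.01%. In Set B, 5 of 18 were higher and 1 lower, against 3.15% and 3.54% of all tested genes. Without those libraries 2 of 18 were higher and 0 lower in Set B, against 3.19% and 3.48%. With the knockout over both treatments 4 of 18 were higher and 0 lower, against 3.87% and 3.25% of all tested genes. These counts were 2 and 0 without those libraries, against 3.29% and 3.19%. Other glial genes moved in Set A too, where 5 of 10 oligodendrocyte genes and 3 of 10 astrocyte genes were lower and 0 higher, and 3 and 1 were lower without those libraries. The part of nuclear RNA content in the C1q and glial values was not tested.

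No C1q gene had an unadjusted p under 0.05 in the other sets. In Set B (sedentary knockout against sedentary wild type) they were 0.13 ± 0.17 (SE) for C1qa, 0.06 ± 0.17 for C1qb and 0.15 ± 0.15 for C1qc, and in Set C (p16 WT RUN against p16 WT CTL) they were -0.06 ± 0.11, -0.12 ± 0.13 and -0.06 ± 0.11. The differences in Set B without the 3 libraries low in nuclear RNA turned to -0.06, -0.17 and -0.02, and those in Set C were 0.04, -0.06 and 0.03. In Set E (p16 KO RUN against p16 WT RUN), which holds none of the libraries low in nuclear RNA, they were -0.06 ± 0.08, -0.11 ± 0.10 and 0.02 ± 0.11. The interval of C1qa in Set E ran from -0.25 to 0.12, so that larger log2 differences of C1qa with genotype in running mice lie outside it. In Set D (p16 KO RUN against p16 WT CTL) C1qa was at -0.12 ± 0.11, C1qb at -0.23 ± 0.11 (limma adjusted p = 0.608) and C1qc at -0.04 ± 0.12. With 1 library left out, C1qb in Set D had an unadjusted p under 0.05 in 3 of 8 fits (limma): -0.27 without p16 WT CTL replicate 1, -0.31 without p16 WT CTL replicate 3 and -0.27 without p16 KO RUN replicate 15. Over the 8 fits, among them that without p16 WT CTL replicate 2, low in nuclear RNA, it ran from -0.31 to -0.16.

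C4b, on the minus strand at chr17:34728381-34743897 with 41 exons in its longest transcript, encodes complement C4, which is cleaved by the C1 complex. It was at 29.7, 30.2, 33.6 and 35.1 TPM in p16 WT CTL and at 45.3, 36.9, 30.4 and 32.5 TPM in p16 KO CTL. After running it was at 27.5, 55.3, 35.7 and 35.4 TPM in p16 WT RUN and at 39.3, 33.0, 39.2 and 43.8 TPM in p16 KO RUN. The sedentary wild-type libraries formed the narrowest group, and p16 WT RUN replicate 10 stood alone at the top.

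In Set D, C4b was higher in p16 KO RUN than in p16 WT CTL by 0.26 on the log2 scale (SE 0.082, 95% interval 0.08 to 0.45, 1.20-fold). The unadjusted p was 0.0109 and the limma p adjusted by Benjamini-Hochberg was 0.408. The groups overlapped, since p16 KO RUN replicate 14 was below 2 of the wild-type libraries, and the exact permutation p was 0.0571. The difference stayed between 0.21 and 0.33 when each library was left out, with an unadjusted p under 0.05 in 8 of 8 fits. With all 16 libraries in one fit its unadjusted p was 0.131 (limma). In Sets A, B, C and E the gene was, in order, at 0.04 ± 0.11 (SE), 0.22 ± 0.10, 0.20 ± 0.19 and 0.06 ± 0.19, none with an unadjusted p under 0.05. The knockout difference over both treatments was 0.14 ± 0.12, and 0.24 without p16 WT RUN replicate 10, where the unadjusted p was 0.0112 (limma).

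C4b varied with the genes of reactive astrocytes. Their summed level was 560 to 699 TPM in p16 WT CTL, 591 to 877 TPM in p16 KO CTL, 610 to 1216 TPM in p16 WT RUN and 715 to 887 TPM in p16 KO RUN, so that all p16 KO RUN libraries lay above all p16 WT CTL libraries. The correlation with C4b was 0.73 (Spearman's 0.66, n = 16), 0.83 over the 13 libraries, but 0.49 without the 2 libraries farthest from the median. The 10 general astrocyte genes correlated with C4b at 0.26, at 0.84 over the 13 libraries and at 0.49 without the 2 farthest, and the microglia genes at 0.15, 0.66 and 0.29. In Set D, 3 of the 10 tested genes of the reactive astrocyte list were higher and 0 lower at an unadjusted p under 0.05, against 4.97% of all tested genes that were higher. Where C4b was not called, 3 were higher in Set A, against 10.7%, and 4 with running over both genotypes, against 9.87%. Set B had 1 higher, against 3.15%. Set C, Set E and the knockout over both treatments had 0, against 2.69%, 2.11% and 3.87%. The part of these genes in the C4b difference was not tested. C4a, the neighbouring copy at chr17:34809092-34823454, was at 2.47 ± 0.685 TPM over the 16 libraries, and 8.26% of the 150-base windows of the C4b transcript are identical in C4a. A read that lies within such a window matches both transcripts, so that only its mate can place it.

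C3, at chr17:57203967-57228136 on the minus strand, encodes the protein on which all branches of the cascade meet. It was at 0.0493, 0.416, 0.129 and 0.108 TPM in p16 WT CTL, 0.513, 0.210, 0.191 and 1.18 TPM in p16 KO CTL, 0.221, 0.922, 0.0795 and 0.379 TPM in p16 WT RUN and 0.290, 1.20, 0.344 and 0.0763 TPM in p16 KO RUN. Its mean coverage per base was 0.154 to 3.29, with a median of 0.819, so these levels rest on few reads. The highest libraries were p16 KO RUN replicate 14 and p16 KO CTL replicate 8, and every pair of groups overlapped.

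In Set B the log2 difference of C3 was 1.11 (95% interval -0.18 to 2.39, limma adjusted p = 0.625), on a scale to which 0.1 TPM was added. It was 0.35 after adding 1 TPM and 1.57 after adding 0.01 TPM. Without the 3 libraries low in nuclear RNA it was 2.23, with an unadjusted p of 0.00391 and an adjusted p of 0.663 (limma), and without p16 WT CTL replicate 2 alone it was 1.48, with an unadjusted p of 0.0276. The 2 remaining knockout libraries, at 0.513 and 1.18 TPM, then stood against 3 wild-type libraries at 0.0493 to 0.129 TPM. C3 correlated with the summed level of 6 ependyma genes at 0.77 (0.76 after subtraction of group means, 0.81 over the 13 libraries) and with the 9 dentate granule neuron genes at -0.74 (-0.74 and -0.79). Its correlation with the 7 monocyte and neutrophil genes was 0.49 (0.86 and 0.51), with mural cells 0.53 (0.56 and 0.61) and with oligodendrocytes 0.53 (0.54 and 0.69). Without the libraries low in nuclear RNA, 3 of the 6 ependyma genes and 3 of the 11 pyramidal neuron genes were higher and 2 of the 9 granule neuron genes lower in Set B, against 3.19% of all tested genes higher and 3.48% lower in that fit, and their part in the C3 values was not tested. The other sets gave 0.72 ± 0.60 (SE) for C, 0.85 ± 0.63 for D, 0.13 ± 0.69 for E and -0.25 ± 0.67 for A, none with an unadjusted p under 0.05. Without the libraries low in nuclear RNA Set C was 1.10, Set D 1.22 and Set A -1.01, again with no unadjusted p under 0.05. The knockout difference over both treatments was then 1.18, with an unadjusted p of 0.0402 and an adjusted p of 0.745 (limma). With quantile normalization Set B was 1.31, with an unadjusted p of 0.0386 (limma).

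Cd59a had the smallest p of the 8 genes between the sedentary genotypes. It encodes a surface protein anchored in the membrane by a lipid, and lies on the plus strand at chr2:104095801-104115410, with 5 exons in its longest transcript. Its 250 bases before the RefSeq start are shown because it was the only one of the 8 genes called in Set B.
Cd59a, chr2:104095551-104095800: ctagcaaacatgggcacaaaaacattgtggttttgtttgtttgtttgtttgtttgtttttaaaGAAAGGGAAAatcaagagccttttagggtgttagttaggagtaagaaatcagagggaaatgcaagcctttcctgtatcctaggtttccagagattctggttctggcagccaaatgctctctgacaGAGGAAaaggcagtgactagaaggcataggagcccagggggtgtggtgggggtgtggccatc
Capitals mark a PU.1 core match 62 to 57 bases before the start and, 187 to 178 bases before it, a match to the interferon-stimulated response element, searched on both strands as GAAA, any 2 bases and GAAA again, and present in 2.98% of windows. The promoters of C3 and Cd55 held neither match, and none of the 5 promoters found held a STAT site, TTCNNNGAA, which 7.02% of windows hold.

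Cd59a was at 5.93, 3.44, 5.94 and 5.61 TPM in p16 WT CTL and at 9.45, 8.87, 14.2 and 9.70 TPM in p16 KO CTL. All 4 knockout libraries lay above all 4 wild-type libraries. After running it was at 6.26, 9.14, 3.49 and 9.95 TPM in p16 WT RUN and at 8.28, 8.19, 10.2 and 7.94 TPM in p16 KO RUN. The running wild-type group overlapped both sedentary groups, and p16 KO RUN stayed above every p16 WT CTL library. The summed level of 6 ependyma genes separated the same groups, at 8.66 to 18.5 TPM in p16 WT CTL, 20.8 to 33.4 TPM in p16 KO CTL and 19.8 to 37.1 TPM in p16 KO RUN, with 14.2 to 26.7 TPM in p16 WT RUN. Of these 6 genes 1 was higher in Set B and 3 in Set D, against 3.15% and 4.97% of all tested genes that were higher, and 3 and 4 without the libraries low in nuclear RNA, against 3.19% and 5.92%, with 0 lower. The correlation of Cd59a with this sum was 0.55 (Spearman's 0.62, n = 16), 0.12 after subtraction of group means and 0.64 over the 13 libraries, and its part in the Cd59a difference was not tested. With the choroid plexus genes it was 0.57 (0.51 after subtraction of group means), but -0.04 without the 2 libraries farthest from the median. With reactive astrocytes it was 0.50 (0.31 after subtraction of group means). The parts of these lists were not tested either. The 15 interferon response genes summed to 365 to 428 TPM in p16 WT CTL, 398 to 454 TPM in p16 KO CTL, 357 to 397 TPM in p16 WT RUN and 393 to 432 TPM in p16 KO RUN, with overlap between the genotypes. Of these genes 2 were higher in Set B and 5 in Set D. With the knockout over both treatments 4 were higher, against 3.87% of all tested genes, and in Set E 4, against 2.11%. In each of these comparisons 0 were lower. Without the libraries low in nuclear RNA 1 was higher in Set B, 6 in Set D and 4 with the knockout, against 3.19%, 5.92% and 3.29%. The interferon response sum correlated with Cd59a at 0.42 (Spearman's 0.54) and at 0.02 after subtraction of group means. It was 0.51 over the 13 libraries and 0.54 without the 2 libraries farthest from the median, and the part of this sum was not tested.

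The mean of the sedentary knockout libraries was 10.6 ± 2.47 TPM (SD, n = 4) and that of the sedentary wild-type libraries 5.23 ± 1.20 TPM. The log2 difference was 1.07 (SE 0.21, 95% interval 0.58 to 1.55, 2.10-fold), with an unadjusted p of 0.000754, rank 12 of 17317 genes. It did not pass the adjustment (limma with Benjamini-Hochberg, adjusted p = 0.625), and neither did any other gene in Set B. The exact permutation p was 0.0286, the smallest that 4 against 4 libraries can give. Cd59a was the 1 member called of 8, against 6.69% of all tested genes, and groups that do not overlap were found for 2.7% of them.

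A pair of the sedentary libraries low in nuclear RNA carried the extremes of Cd59a, at 3.44 TPM in p16 WT CTL replicate 2 and at 14.2 TPM in p16 KO CTL replicate 7. The latter was also the library highest in 9 choroid plexus genes, at 219 TPM against 19.9 to 67.3 TPM in the other 15. Without the 3 libraries low in nuclear RNA the difference in Set B was 0.75, with an unadjusted p of 0.00112 and an adjusted p of 0.629 (limma). When each library was left out in turn it was 0.90 to 1.14, with an unadjusted p under 0.05 in 8 of 8 fits.

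In Set D, which shares the p16 WT CTL libraries with Set B, Cd59a was higher by 0.74 (SE 0.17, 95% interval 0.35 to 1.13, limma adjusted p = 0.267, exact permutation p = 0.0286). Cd59a and C4b were the 2 of 8 members called in Set D, against 8.63% of all tested genes, and Cd59a was the 1 member whose groups did not overlap, against 5.68%. In running mice (Set E) the genotype difference was 0.37 ± 0.30 (SE, limma adjusted p = 1.0), and 0 of 8 members were called against 3.87% of all genes. Over both treatments the knockout difference was 0.72 (SE 0.20, 95% interval 0.30 to 1.14, unadjusted p = 0.00229, limma adjusted p = 0.674), the 1 member called of 8 against 7.12% of all tested genes. It remained 0.56 to 0.81 with an unadjusted p under 0.05 in all 16 fits that left out 1 library, and was 0.56 without the 3 libraries low in nuclear RNA.

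Running did not move Cd59a beyond the spread. The log2 difference was 0.37 ± 0.32 (SE) in wild-type mice (Set C, exact permutation p = 0.4) and -0.33 ± 0.17 in knockout mice (Set A, exact permutation p = 0.114). The difference between these running effects, the interaction, was -0.70 (95% interval -1.54 to 0.13, limma adjusted p = 0.797). Without the 3 libraries low in nuclear RNA these values were 0.21, -0.17 and, for the interaction, -0.38 (unadjusted p = 0.391, limma). The interaction also depended on p16 WT RUN replicate 11, at 3.49 TPM: without it the interaction was -1.02 with an unadjusted p of 0.00419, and Set C was 0.68 with an unadjusted p of 0.0187 (limma, adjusted p 0.751 and 0.871). In Set C, 0 of 8 members were called against 4.81% of all genes, and in the interaction 0 of 8 against 5.48%. Cd59b, the neighbouring copy, was at 0.323 TPM on average and shares no 150-base window with the Cd59a transcript.

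**Figure D3:**
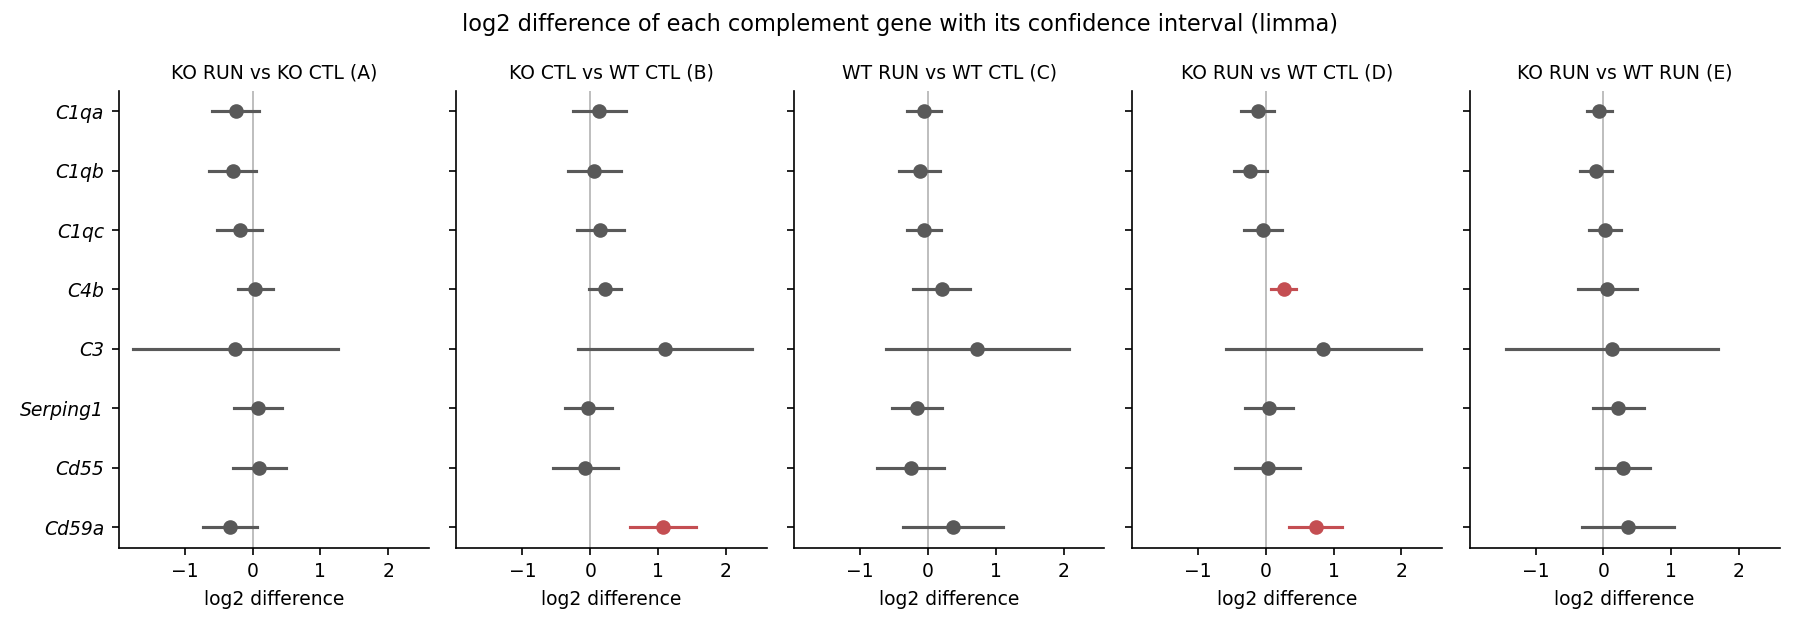
Log2 difference of each complement gene (horizontal axis) in the 5 pairwise comparisons, with its 95% interval from limma. Red marks an unadjusted p under 0.05, which is reached by Cd59a in Set B (1.07) and Set D (0.74) and by C4b in Set D (0.26), and the wide intervals belong to C3.

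The other regulators did not separate any groups. Serping1, at chr2:84765360-84775429 on the minus strand with 8 exons, was at 8.46, 8.18, 6.81 and 6.58 TPM in p16 WT CTL, 8.01, 5.88, 7.91 and 6.51 TPM in p16 KO CTL, 7.73, 5.25, 8.16 and 6.13 TPM in p16 WT RUN and 9.55, 7.32, 6.23 and 8.42 TPM in p16 KO RUN. Its log2 differences in Sets A to E were, in order, 0.08 ± 0.16 (SE), -0.03 ± 0.15, -0.16 ± 0.17, 0.05 ± 0.16 and 0.22 ± 0.17. The interval in Set E, -0.16 to 0.60, was centred highest, and each of the 5 intervals held 0.

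Cd55, at chr1:130439030-130462740 on the minus strand with 10 exons, was at 3.68, 3.11, 2.70 and 2.07 TPM in p16 WT CTL, 2.20, 2.63, 2.67 and 2.85 TPM in p16 KO CTL, 2.15, 3.00, 2.34 and 2.10 TPM in p16 WT RUN and 2.63, 3.41, 3.18 and 2.49 TPM in p16 KO RUN. Its differences ran from -0.26 ± 0.22 (SE) in Set C to 0.29 ± 0.18 in Set E. Without p16 WT RUN replicate 10, Set E was 0.41 with an unadjusted p of 0.0434 (limma, adjusted p = 0.958). Across the libraries Cd55 followed 11 pyramidal neuron genes, with a correlation of 0.80 (Spearman's 0.80, n = 16), 0.84 after subtraction of group means and 0.83 without the 2 farthest libraries. The summed level of those genes was 1776 to 2013 TPM with overlapping groups, and the correlation with 9 dentate granule neuron genes was -0.51. With the oligodendrocyte genes the correlation of Cd55 was 0.54, 0.80 after subtraction of group means and 0.59 without the 2 farthest libraries. Cd55b, a neighbouring copy, was listed at 0 in all running libraries, at 0 to 0.200 TPM in p16 WT CTL and at 0 to 0.151 TPM in p16 KO CTL. It was also at 0 in p16 WT CTL replicates 3 and 4 and p16 KO CTL replicates 6 and 8. Its mean of 0.0338 TPM was below the filter, so Cd55b was not tested.

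For each pattern the 5 genes of at least 5 TPM most like it were listed by Pearson correlation over the 16 libraries. For the mean of C1q they included Siglech, Fcgr3, Csf1r and Aldoc, with correlations of 0.92 to 0.95. Siglech and Csf1r were also on the microglia list and Aldoc on the astrocyte list. Those most like Cd59a were Ocel1, Ntsr2, Fbxw8, Rhoq and Eif2ak2 (0.80 to 0.85), and those most like C4b were Vcan, Lnx2, Ext2, Wasf2 and Caln1 (0.74 to 0.78). Cd55 was closest to Chgb, Ephb1, Sgtb, Evc2 and Ywhah (0.79 to 0.82), and C3 to Efna3, Asap1, Zfpm1, Fam219aos and Dab2ip (0.86 to 0.89). The genes like Serping1 included Zscan29, Bcl10, Rpap3 and Npy2r (0.68 to 0.73). After subtraction of group means the correlations were 0.59 to 0.77 for Cd59a, 0.70 to 0.76 for C4b and 0.78 to 0.85 for Cd55. They were then 0.85 to 0.90 for C3 and 0.92 to 0.98 for C1q. The study names Ntsr2, Rhoq and Eif2ak2, like Cd59a, among the genes higher in Set B. These best matches were picked from all genes of at least 5 TPM and are high by selection.

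Over the 8 genes together, the median log2 differences in Sets A to E were, in order, -0.22, 0.14, -0.06, 0.04 and 0.09, against medians of 0.02, -0.01, 0.0039, 0.0038 and 0.0032 over all tested genes. The C1q genes, which varied together, changed direction in Sets A and B without the 3 libraries low in nuclear RNA. The medians were not taken without those libraries. Running over both genotypes called 0 of 8, against 17.9% of all tested genes, with a median of -0.06 against 0.01. At an adjusted p under 0.05 no member was called in any comparison (limma), where 0.0173% of all tested genes were called in Set A, 0.00577% in Set E, 0.751% with running over both genotypes and 0% in the other comparisons. No member had groups that did not overlap in Set A, Set C or Set E, against 10.4%, 3.34% and 2.46% of all tested genes. The members called with the 3 libraries low in nuclear RNA left out were 0 in Set A, against 8.49% of all tested genes, 2 in Set B, against 6.68%, 0 in Set C, against 5.88%, and 2 in Set D, against 11.2%. They were 0 in the interaction, against 7.25%, 0 with running over both genotypes, against 9.29%, and 2 with the knockout over both treatments, against 6.48%. In the main fits, with no library left out, the smallest adjusted p of a member (limma with Benjamini-Hochberg) was 0.267, that of Cd59a in Set D. Without the 3 libraries low in nuclear RNA that value was 0.214. Across the alternatives the lowest was 0.0855 (limma), for C1qb in Set A without p16 KO CTL replicate 5.

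Of 52 further complement genes, 37 were tested, 26 had a mean under 1 TPM and 14 a mean of 10 TPM or more. Of the 7 terminal components, which build the membrane attack complex, only C8g was tested, at 2.99 TPM, and the other 6 had means of 0 to 0.0633 TPM. The initiating lectins Mbl1 and Mbl2 had means of 0 and 0.0192 TPM, and the C1q partners C1ra and C1s1 had 3.50 and 0.696 TPM. Among regulators 4 of 14 had a mean under 1 TPM, and among receptors and C1q partners 6 of 13. The most abundant were Clu (clusterin) at 1297 TPM, Calr (calreticulin, a C1q partner) at 608 TPM, Susd4 at 193 TPM and Lrp1 at 144 TPM.

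In Set A, 8 of these 37 genes were higher and 0 lower at an unadjusted p under 0.05 (21.6% in either direction), against 10.7% of all tested genes that were higher and 18.5% in either direction. They were Cd93 (1.07), Cfp, which is properdin (1.04), Csmd2 (0.77), Susd4, an inhibitor of the C3 convertase (0.33), Lrp1 (0.22), C8g (0.67), Fcna (1.41) and C5ar1, the C5a receptor (0.66). Without the libraries low in nuclear RNA, 4 were higher and 0 lower, against 4.9% and 3.59% of all tested genes. These 4 were Fcna (2.17, mean level 0.189 TPM), C5ar1 (0.88, mean level 0.469 TPM), Susd4 (0.33) and Csmd2 (0.33). Cd93 was then at 0.50, Cfp at 0.20, Lrp1 at 0.08 and C8g at 0.63, with unadjusted p (limma) of 0.147, 0.399, 0.184 and 0.0606. Set B gave 0 higher and 1 lower, C8g at -0.55, against 3.15% and 3.54% of all genes. Without those libraries it gave 1 higher, Vtn (0.22), and 2 lower, C8g (-0.67) and Cfp (-0.49), against 3.19% and 3.48%.

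Over both genotypes, 7 of the 37 were higher with running and 1 lower at an unadjusted p under 0.05, against 9.87% and 8.02% of all tested genes. In either direction this was 21.6%, against 17.9% of all tested genes. Cd93, a receptor of endothelial and myeloid cells related to C1q receptors, was higher by 0.81 (SE 0.20, limma adjusted p = 0.0771), and by 0.50 without the 3 libraries low in nuclear RNA (unadjusted p = 0.0123, limma). Susd4 was higher by 0.23 (SE 0.053, limma adjusted p = 0.0620), and by 0.21 without those libraries (unadjusted p = 0.00548, limma). Csmd2 was higher by 0.55 and Lrp1 by 0.21, and by 0.24 and 0.11 without those libraries, all with an unadjusted p under 0.05. Itgam, the alpha chain of complement receptor 3 on microglia, was lower, at -0.29 (limma adjusted p = 0.168), and at -0.12 without them (unadjusted p = 0.148, limma). The other calls were C8g (0.41), Cfb (0.24) and Masp2 (1.08), none of which had an unadjusted p under 0.05 without those libraries. Without those libraries 5 of the 37 had an unadjusted p under 0.05, all of them higher, against 5.27% of all tested genes: Fcna, Cd93, Susd4, Csmd2 and Lrp1. None of the 37 passed the adjustment in any comparison. Of 10 endothelial genes, 5 were higher with running and 0 lower, and 0 were called without those libraries. Their part in the Cd93 values was not tested.

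**Figure D4:**
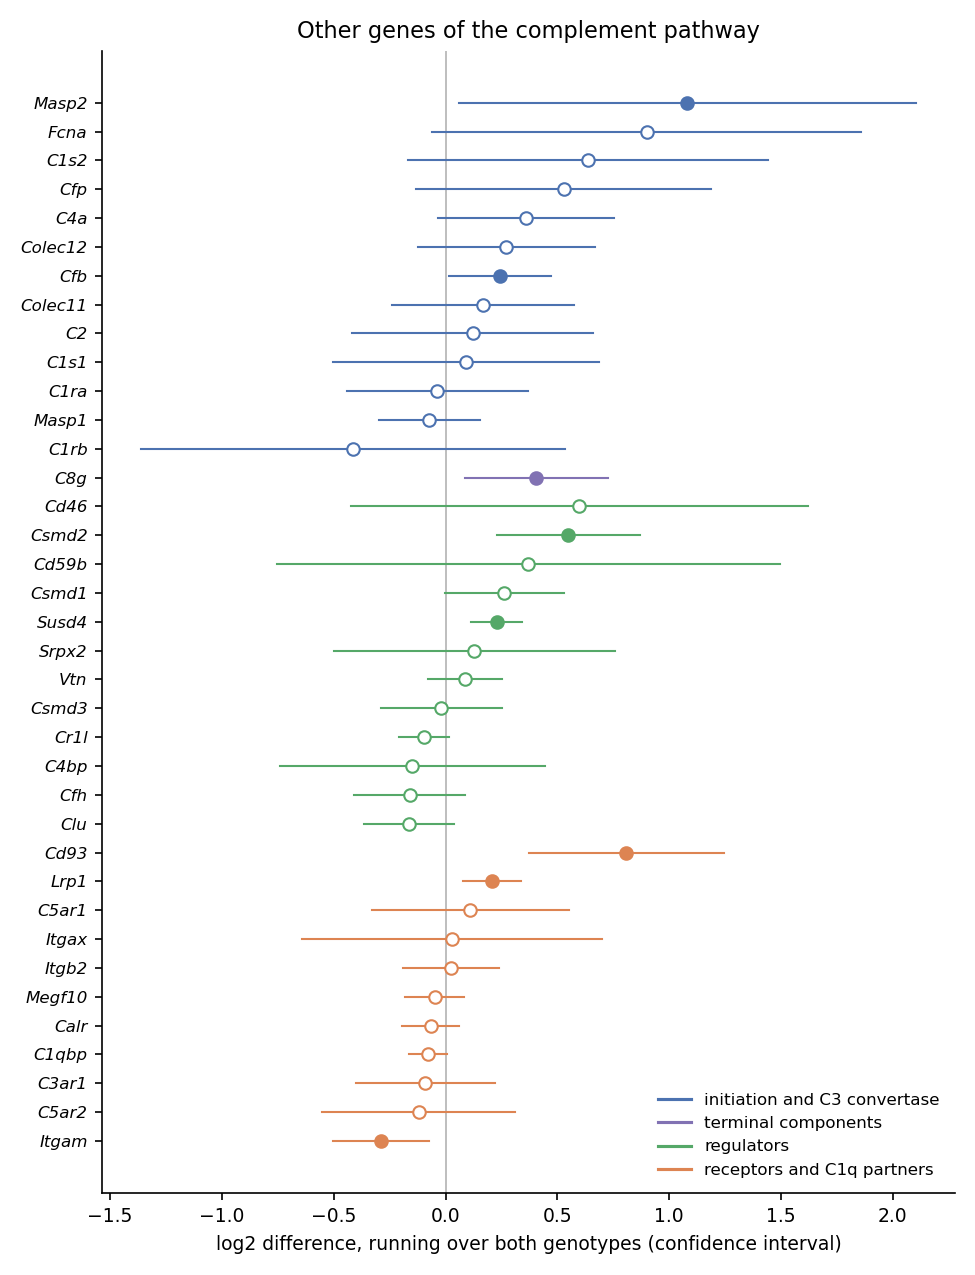
Log2 difference with running over both genotypes (horizontal axis, 95% interval from limma) for the 37 tested complement genes other than the 8, coloured by role. Filled points have an unadjusted p under 0.05: Susd4 (0.23), Csmd2 (0.55), Cd93 (0.81), Lrp1 (0.21), C8g, Cfb and Masp2 lie to the right of 0 and Itgam (-0.29) to the left.

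In Set C, Cd93 (0.54) and Lrp1 (0.19) were higher and C1rb (-1.26) and Itgam (-0.26) lower, against 2.69% and 2.13% of all tested genes. Set D gave 4 higher, Cd93 (0.78), Fcna (1.46), Susd4 (0.21) and Lrp1 (0.16), and Csmd3 lower at -0.29, against 4.97% and 3.66%. In Set E, Calr was higher by 0.19 and C3ar1, the C3a receptor, lower at -0.45, against 2.11% and 1.76%. The knockout over both treatments gave Calr (0.14) and Csmd3 (-0.27), against 3.87% higher and 3.25% lower. The interaction called C2 (1.18), C5ar1 (1.11) and Megf10 (-0.28), against 2.95% and 2.54%. Of the genes named here, C1rb, Fcna, C2 and C5ar1 were low, with means of 0.267, 0.189, 0.733 and 0.469 TPM. Without the libraries low in nuclear RNA the calls were 1 higher and 0 lower in Set C (against 2.97% and 2.91% of all tested genes), 2 and 2 in Set D (5.92% and 5.25%), 2 and 0 in the interaction (3.75% and 3.49%) and 1 and 1 with the knockout (3.29% and 3.19%). All of these are calls at an unadjusted p under 0.05 from limma, and the sets share libraries.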

How the data were processed

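Libraries were made from total RNA of the dentate gyrus with an mRNA kit, 16 in all and 4 per group, and sequenced in pairs of reads. According to the labels and the methods of the study, the authors demultiplexed with bcl2fastq 2.20, masked adapters with cutadapt 1.11 and trimmed the reads with ERNE. The reads were aligned to mm10 with STAR, and abundances were computed with StringTie. The TPM values are those deposited by the authors. The coverage values, as deposited, are mean coverage per base and served only for depth. The study's own comparisons used read counts and DESeq2, which were not used here. FPKM columns and the enrichment and qPCR data were not used.

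Where a gene name had several rows (112 to 130 names, depending on the library), these were added up. Each library was scaled by its median ratio to the mean library, taken over the 13226 genes that reached 1 TPM in all 16. Genes with a mean below 0.1 TPM were left out, and the remaining 17317 were compared by limma 3.58.1 (R 4.3.3, statmod 1.5.0), on log2 of scaled TPM plus 0.1, using empirical Bayes moderation with a variance trend. A fold change on this scale understates the change of low genes. Sets used the 8 libraries of their groups; the interaction and the effects over both genotypes or treatments used all 16. P-values were adjusted by Benjamini-Hochberg over all tested genes, and calls use the study's threshold, an unadjusted p under 0.05. For single members an exact permutation test (two-sided, 35 splits) was added. Levels are TPM as deposited. The procedure was tested on simulated data. Tables and figures were made with Python 3.11.15, pandas 2.3.3, numpy 2.4.6, scipy 1.17.1 and matplotlib 3.10.9.

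All 8 genes were named in every comparison, and other complement genes came from 4 pathway lists of 52 genes. Some of the genes most like a member are not reported here. The members and lists were chosen with earlier results of these data known. Cell type and state markers were summed per library over lists for microglia, border macrophages, monocytes and neutrophils, astrocytes, reactive astrocytes, oligodendrocytes, endothelium, mural cells, meninges and fibroblasts, choroid plexus, ependyma, blood, pyramidal neurons, dentate granule neurons, interneurons, the interferon response and nuclear RNA. Gene structure and identity between copies come from GENCODE vM21 on GRCm38, and promoters, found for 5 of the 8 genes, from RefSeq GRCm38.p6.

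Alternatives were a filter at a mean of 1 TPM, no filter, 1 or 0.01 TPM added, TPM as deposited, quantile normalization, no variance trend, the highest row per gene name, all 16 libraries in one fit, and each library left out. Leaving out the 3 libraries low in nuclear RNA was chosen after seeing the data.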

Additional observations from a re-analysis of the deposited data

Results flagged for a closer look

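Each of the 8 genes was checked in each of the 4 groups for a library far from the other 3, with the gap to the nearest library set against the range of the group. Of these 32 groups, 3 held such a library, all for Cd59a, and chance alone gives about 1 in 20. Cd59a was at 3.44 TPM in p16 WT CTL replicate 2, against 5.61 to 5.94 TPM in the other 3 libraries. It was at 14.2 TPM in p16 KO CTL replicate 7, against 8.87 to 9.70 TPM. It was at 10.2 TPM in p16 KO RUN replicate 15, against 7.94 to 8.28 TPM. The first and the second are libraries low in nuclear RNA, and their part in these values was not tested.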

How the results depend on the processing

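No paired analysis was possible because the groups share no replicate numbers. Cd59a was called in Set B, Set D and over both treatments under every setting run, and no member passed the adjusted threshold under any. Of the values under other filters, added constants, scalings and fits, 534 kept their direction and their side of the threshold, and 10 did not. With quantile normalization Set B called 3 members, C3 (1.31) and C4b (0.23) beside Cd59a, and with all 16 libraries in one fit Set D called 1, without C4b. The other counts of members were within 1.5 times those reported or stayed at 0. Quantile normalization reversed Cd55 (-0.057) and Serping1 (-0.00180) in Set A, Cd55 (0.032) and Serping1 (0.045) in Set B, Cd55 (-0.025) in Set D and Cd59a (-0.013) with running over both genotypes. TPM as deposited reversed C1qa (-0.000517) with the knockout over both treatments. No scaling moved the median of all genes by more than 0.064.

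Without the 3 libraries low in nuclear RNA, 2 members were called in Set B and 2 with the knockout over both treatments, C3 (2.23 and 1.18) beside Cd59a, against 6.68% and 6.48% of all tested genes. Reversed were C1qa (0.046), C1qb (0.00087), C1qc (0.063) and C4b (-0.011) in Set A, C1qa (-0.064), C1qb (-0.17), C1qc (-0.017) and Serping1 (0.034) in Set B, C1qa (0.044) and C1qc (0.025) in Set C and C1qc (0.046) in Set D. The interaction reversed for C1qa (0.0020), C1qb (0.062) and C1qc (0.038), running over both genotypes for C1qa (0.045) and C1qc (0.044), and the knockout over both treatments for C1qa (-0.063). The cause was not tested.

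With 1 library left out, members called were 0 to 2 in Set A, 1 to 2 in Set B, 0 to 1 in Set C, 2 to 3 in Set D, 0 to 1 in Set E, 0 to 1 in the interaction, 0 to 2 with running and 1 to 2 with the knockout. Some differences then crossed 0. In Set A the range was -0.016 to 0.13 for C4b, -0.78 to 0.19 for C3, -0.0099 to 0.19 for Serping1. In Set B the range was -0.23 to 0.053 for Cd55, -0.11 to 0.046 for Serping1, -0.037 to 0.20 for C1qb. In Set C the range was -0.12 to 0.044 for C1qa, -0.14 to 0.025 for C1qc. In Set D the range was -0.11 to 0.046 for C1qc, -0.13 to 0.16 for Cd55, -0.038 to 0.16 for Serping1. In Set E the range was -0.042 to 0.10 for C1qc, -0.091 to 0.26 for C4b, -0.11 to 0.00044 for C1qa, -0.16 to 0.00046 for C1qb, -0.39 to 0.58 for C3. In the interaction the range was -0.31 to 0.037 for C4b. With running over both genotypes the range was -0.077 to 0.18 for Cd59a, -0.087 to 0.013 for Serping1, -0.026 to 0.46 for C3. With the knockout over both treatments the range was -0.072 to 0.044 for C1qb, -0.021 to 0.095 for C1qa. Of the 37 other complement genes, other filters, constants, scalings and fits called 7 to 12 in Set A, 1 to 5 in Set B, 1 to 4 in Set C, 2 to 5 in Set D, 1 to 3 in Set E, 1 to 3 in the interaction, 7 to 9 with running and 1 to 2 with the knockout. With 1 library left out they were, in the same order, 4 to 11, 0 to 6, 1 to 4, 1 to 4, 0 to 2, 1 to 7, 6 to 12 and 0 to 8. Set B gave 6 without p16 KO CTL replicate 5, 5 without p16 WT CTL replicate 2, also 5 without p16 KO CTL replicate 8, but 0 when p16 WT CTL replicate 1, 3 or 4 was left out, and the knockout gave 8 without p16 WT CTL replicate 2. Set A gave 4, and Set D 1, without p16 KO RUN replicate 16. The tables hold no read counts, so counting error is unknown, and it bears most on C3. A pool of mice per library hides the spread between animals, and 4 libraries per group cannot go below an exact p of 0.0286.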
